A study of Mus musculus with 32 samples.

Results

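The noncoding host genes of small nucleolar RNAs (snoRNAs) were followed in mouse medulloblastoma models. The group was taken as 8 genes named by symbol, Gas5, Snhg1, Snhg3, Snhg5, Snhg6, Snhg8, Snhg12 and Zfas1, and 4 of them (Gas5, Snhg3, Snhg12 and Zfas1) were matched by Ensembl identifier to rows of a count table of 37310 genes. Snhg1, Snhg5, Snhg6 and Snhg8 were matched to no row and their transcripts were not analysed here, although snoRNA genes that lie inside 3 of them have rows.

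RNA was sequenced from brain tumor biopsies of 6 GMYC and 8 GTML tumors, each taken as 1 sample. The paper describes GTML tumors sequenced for an earlier study and new ones. The labels do not say which are which, so model and study cannot be told apart here. The paper describes an outlier GTML tumor that also resembled the SHH subgroup of medulloblastoma. Its differential expression comparison of the models used fewer GTML tumors than are used here. The sample labels do not name the outlier. All 8 GTML tumors were therefore kept, and each was also left out in turn. In GMYC mice (Glt1-tTA/TRE-MYC, kept in the FVBN strain) a tetracycline transactivator under the Glt1 promoter, a glutamate transporter promoter active in hindbrain cells, switched on a MYC transgene, and doxycycline would switch it off. In GTML mice the same promoter directed MYCN. The labels give neither the age nor the sex of the mice, and both groups were tumors, so no normal tissue served as a control. Total counts per tumor were between 6218378 and 7279811 in GMYC tumors and between 4602294 and 6317404 in GTML tumors. Levels below are CPM, that is, counts divided by the library size after trimmed mean of M-values (TMM) scaling. Fold changes are on the log2 scale with GTML set over GMYC, so a negative value is a higher level in GMYC tumors. Genes were called with edgeR's quasi-likelihood test at a Benjamini-Hochberg adjusted p under 0.05 over all 21024 genes tested.

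The libraries fell into sets by their share of counts on snoRNA genes. That share was between 0.366% and 0.438% in GMYC tumors 1 to 4 and GTML tumors 1 and 2, and between 0.151% and 0.272% in GMYC tumors 5 and 6 and GTML tumors 3 to 8. The sets were divided at 0.3%, a division noticed in the counts and named by no label, and the results of the tested hosts are given within them. Among tumor identity genes, Otx2, a transcription factor of Group 3 medulloblastoma, lay between 237 and 377 CPM, and the proliferation gene Mki67 between 413 and 1068 CPM, so both were present in all 14 tumors. Tubb3, a neuronal tubulin gene and the 1 of 5 tumor identity genes called between the models, was lower in GTML tumors (213 ± 20.3 CPM in GMYC and 157 ± 29.9 CPM in GTML tumors, SD, n = 6 and n = 8, log2 fold change -0.44, edgeR adjusted p = 0.0226, and 0.0492 with a term for the side). Npr3, another gene used to mark Group 3 tumors, ran from 4.49 to 176 CPM, with the highest level in GTML tumor 2. Myc was at 33.3 CPM in GMYC tumor 6 and between 134 and 165 CPM in the other GMYC tumors, against 2.59 to 8.66 CPM in GTML tumors. The paper describes the transgene as human MYC, whereas these counts are on the mouse gene. What part of them came from the transgene was not tested. In bulk biopsies, fewer cells of a type and less RNA per cell cannot be told apart.

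snoRNAs are short nuclear RNAs that guide the chemical modification of ribosomal RNA. Box C/D snoRNAs direct methylation by the enzyme fibrillarin, and box H/ACA snoRNAs direct pseudouridylation by dyskerin. In mammals most are cut out of the introns of a host transcript. In noncoding hosts such as Gas5, the intron carries the functional RNA, while the spliced remainder is often translated over short frames and removed by nonsense-mediated decay. Several hosts begin, like ribosomal protein mRNAs, with a cytosine followed by a run of pyrimidines, the 5′ terminal oligopyrimidine (TOP) motif, which ties their stability and translation to growth signals. MYC proteins are known to drive ribosome production, which is why the host genes are of interest in tumors driven by MYC or MYCN.

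Each host carries its own set of snoRNAs, and 4 snoRNA genes lying inside the 8 hosts on the same strand had a mean of at least 5 counts per tumor. They are printed because they are the snoRNAs whose counts can be set beside a host, from the GENCODE M21 transcripts of the GRCm38 assembly. Capitals mark the C box TGATGA and the D box CTGA, or the ACA near the 3′ end of a box H/ACA snoRNA.
Snora16a, in Snhg12: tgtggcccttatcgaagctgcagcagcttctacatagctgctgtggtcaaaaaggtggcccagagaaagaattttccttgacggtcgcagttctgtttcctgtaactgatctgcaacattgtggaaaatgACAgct
Snora24, in Snhg8: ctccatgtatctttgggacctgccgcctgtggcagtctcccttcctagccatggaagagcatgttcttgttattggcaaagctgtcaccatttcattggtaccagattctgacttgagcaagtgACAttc
Gm23201, in Zfas1: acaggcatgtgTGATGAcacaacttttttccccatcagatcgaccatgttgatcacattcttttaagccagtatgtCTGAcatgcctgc
Snord87, in Snhg6: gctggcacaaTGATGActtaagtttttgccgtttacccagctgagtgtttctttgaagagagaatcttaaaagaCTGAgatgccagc
Zfas1 also carries Snord12 and Gm25878, relatives of Gm23201 that were listed at 0 in all 14 tumors and are printed for comparison.
Snord12, in Zfas1: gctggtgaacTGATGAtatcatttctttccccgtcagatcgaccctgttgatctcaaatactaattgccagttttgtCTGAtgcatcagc
Gm25878, in Zfas1: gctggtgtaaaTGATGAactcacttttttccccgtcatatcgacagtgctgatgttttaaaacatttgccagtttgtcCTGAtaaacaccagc
Of 1507 snoRNA transcripts in that annotation, 20.2% held both boxes and 18.3% the ACA end in the positions searched.

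Zfas1 was the only 1 of the 3 tested host genes that differed between the models, with a higher level in GMYC tumors. Gas5 and Snhg12 were not called, and Snhg3 was almost uncounted. The 1 call among 3 tested hosts stands beside 21.2% of all tested genes called in either direction, and beside 9.71% called lower and 11.5% called higher in GTML tumors, so the number of calls among the hosts is not a result in itself. In none of the 3 were the models free of overlap in CPM, which they were for 4.62% of tested genes.

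Zfas1 (ENSMUSG00000074578) is transcribed beside the 5′ end of Znfx1, on the opposite strand, and hosts box C/D snoRNAs of the Snord12 family. Its level in GMYC tumors had a lowest value of 50.9, a median of 75.0 and a highest value of 90.8 CPM. In GTML tumors these were 28.9, 47.6 and 60.2 CPM. The groups overlapped through GMYC tumor 6 alone, since the other 5 GMYC tumors lay above every GTML tumor and 6 of the 8 GTML tumors lay below the lowest GMYC tumor. The means were 72.7 ± 14.1 CPM (SD, n = 6) and 46.1 ± 10.8 CPM (SD, n = 8). On the log2 scale the models differed by -0.66 ± 0.173 (standard error, 95% interval -1.02 to -0.29), with an adjusted p of 0.0167 in edgeR, a 1.58-fold higher level in GMYC tumors. When each tumor was left out in turn the value stayed between -0.74 and -0.58, with an adjusted p between 0.00739 and 0.0441, and without GTML tumor 2 it was -0.72. Znfx1, a helicase gene whose reads could not be separated from those of Zfas1 where the strand is not used, was at 80.2 ± 14.6 and 82.1 ± 16.2 CPM (SD, n = 6 and n = 8), a log2 difference of 0.03 (edgeR, adjusted p = 0.889).

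Gas5 (ENSMUSG00000053332), first described as a transcript that accumulates in growth-arrested cells, carries the most snoRNA genes of the 4 hosts with a row. Its level in GMYC tumors ran from 108 CPM over a median of 163 to 227 CPM. In GTML tumors it ran from 101 over a median of 151 to 170 CPM. The groups overlapped almost entirely, with GMYC tumor 5 above every GTML tumor and GTML tumor 1 below every GMYC tumor. The means were 160 ± 40.4 CPM (SD, n = 6) and 146 ± 24.6 CPM (SD, n = 8), which differed by -0.13 ± 0.156 on the log2 scale (standard error, 95% interval -0.46 to 0.20, edgeR adjusted p = 0.550). Without GMYC tumor 5 it was -0.01. Zbtb37, which overlaps Gas5 on the opposite strand, had a log2 fold change of 0.33 (adjusted p = 0.119, edgeR).

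Snhg12 (ENSMUSG00000086290) hosts box H/ACA snoRNAs and 1 box C/D snoRNA, Snord99. Its level in GMYC tumors had a lowest value of 37.4, a median of 63.4 and a highest value of 77.1 CPM. In GTML tumors the values were 33.4, 47.6 and 69.0 CPM. The groups overlapped over most of their range, with 2 GTML tumors below the lowest GMYC tumor and 1 GMYC tumor above the highest GTML tumor. The means were 61.2 ± 13.6 CPM (SD, n = 6) and 50.4 ± 13.4 CPM (SD, n = 8). They differed by -0.28 ± 0.192 on the log2 scale (standard error, 95% interval -0.69 to 0.13, edgeR adjusted p = 0.296). The intervals of Gas5 and Snhg12 do not show that the models share 1 level.

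Snhg3 (ENSMUSG00000085241), the host of Snora73a and Snora73b, had between 0 and 2 counts in every tumor and was below the filter of a CPM above 1 in at least 3 tumors. It overlaps Rcc1, the gene of a nuclear exchange factor, on the same strand. Rcc1 itself was at 120 ± 24.8 and 106 ± 38.4 CPM (SD, n = 6 and n = 8), with a log2 fold change of -0.18 (adjusted p = 0.569, edgeR).

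Tumor by tumor the 3 hosts had features in common. GMYC tumor 6 ranked last in its model for each, at 108 CPM of Gas5, 37.4 CPM of Snhg12 and 50.9 CPM of Zfas1, and it was also the tumor with 33.3 CPM of Myc. Whether that level had a part in it was not tested. Without GMYC tumor 6 the log2 fold changes were -0.22 for Gas5, -0.39 for Snhg12 and -0.74 for Zfas1, with adjusted p of 0.276, 0.134 and 0.0141 (edgeR). GTML tumor 1 was the lowest GTML tumor for Gas5 and GTML tumor 3 for Snhg12 and Zfas1.

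**Figure D1:**
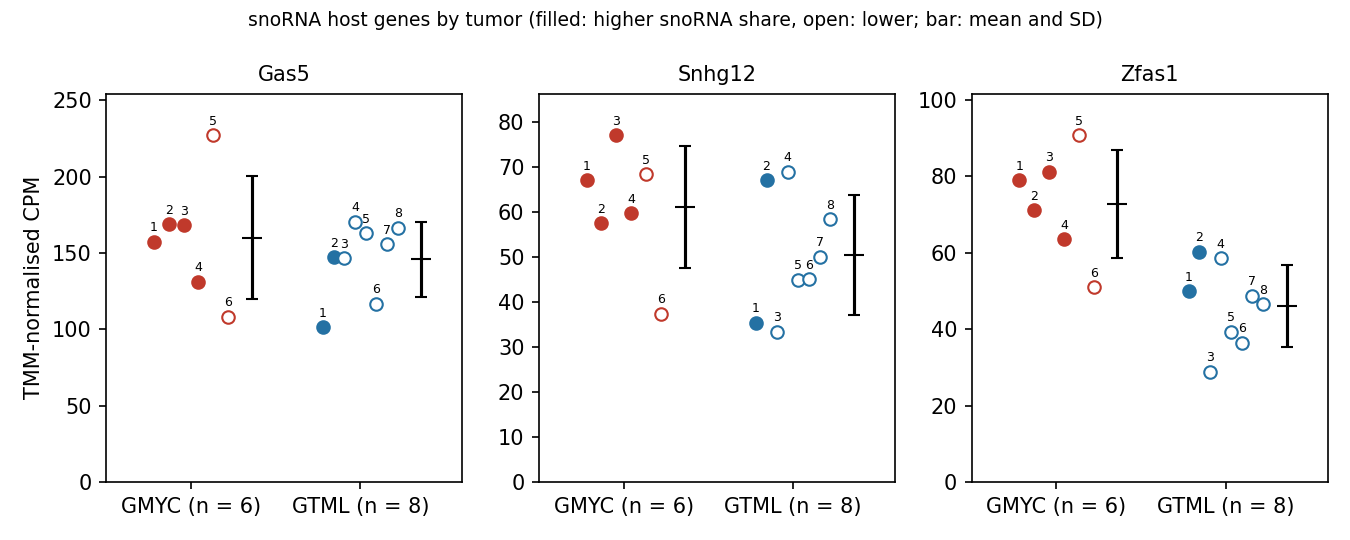
TMM-normalised CPM (vertical axis) of Gas5, Snhg12 and Zfas1 in 6 GMYC and 8 GTML tumors, numbered, with filled points for tumors with the higher snoRNA share, open points for the lower share, and black bars for the mean and SD. For Zfas1, 5 GMYC tumors lie above every GTML tumor, while the models overlap widely for Gas5 and Snhg12.

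The models were not spread evenly over the library sets, with 4 GMYC and 2 GTML tumors on the side with the higher snoRNA share. With the side as a term in the fit, Zfas1 stood at -0.58 ± 0.183 (log2, standard error, edgeR adjusted p = 0.0489), beside 13.6% of all tested genes called and 6.77% called lower in GTML tumors. That call sat at the threshold. It was lost, with adjusted p between 0.0527 and 0.279, without any 1 of GMYC tumors 1, 3, 5 and 6 or GTML tumors 1, 3, 5, 6, 7 and 8, and without GMYC tumor 5 the value was -0.35. Gas5 was at -0.22 (adjusted p = 0.379) and Snhg12 at -0.21 (adjusted p = 0.538) in the same fit. With 1 tumor left out, Gas5 ran from -0.43 without GMYC tumor 6 (adjusted p = 0.0886) to -0.02 without GMYC tumor 5, and Snhg12 from -0.39 without GMYC tumor 6 to -0.04 without GTML tumor 1.

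Within the sets the direction of Zfas1 held and the call did not. On the side with the higher share, the 4 GMYC tumors lay between 63.5 and 81.2 CPM and the 2 GTML tumors at 49.98 and 60.2 CPM. The log2 difference there was -0.41 ± 0.181 (standard error, edgeR adjusted p = 0.403), on a side where 0.0106% of genes were called. On the side with the lower share, the 2 GMYC tumors were at 90.8 and 50.9 CPM and the 6 GTML tumors between 28.9 and 58.6 CPM, with GMYC tumor 6 inside the GTML range. The log2 difference was -0.72 ± 0.288 (standard error, edgeR adjusted p = 0.107), where 13.3% of genes were called. The difference between the sides was itself tested and was 0.30 ± 0.373 for Zfas1 (standard error, edgeR adjusted p = 0.720). No gene passed that interaction test in edgeR, which called 0 of 21024 genes. In that fit 3180 genes had an unadjusted p under 0.05, none of them among the 3 hosts. In limma-voom the interaction was called for 0 of the 3 hosts.

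**Figure D2:**
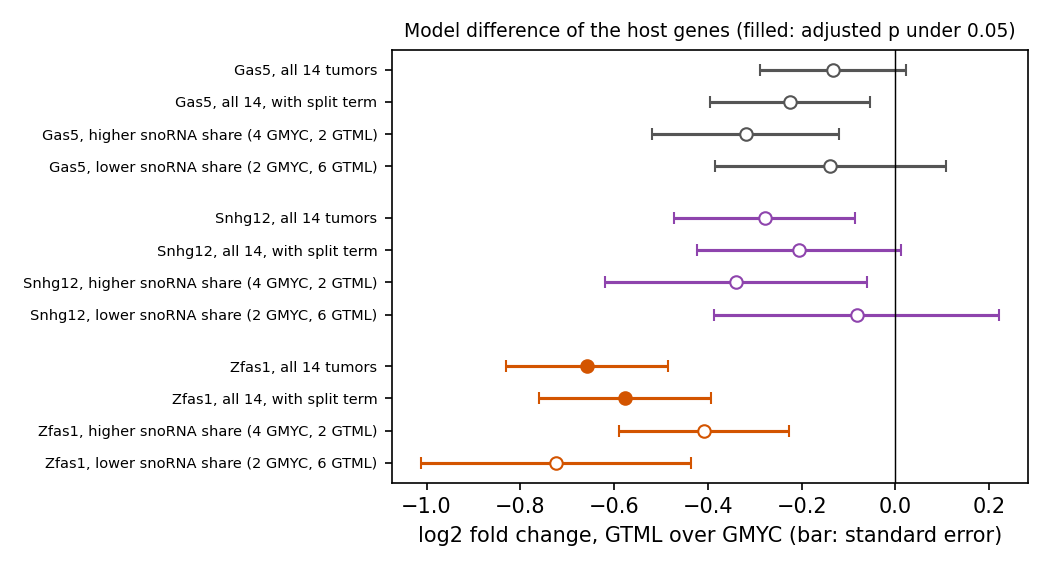
log2 fold change, GTML over GMYC (horizontal axis, bars for the standard error), of the 3 tested hosts over all tumors, with a term for the snoRNA side, and within each side, with filled points where the adjusted p was under 0.05. Every point lies below 0, and the filled points are Zfas1 at -0.66 over all tumors and -0.58 with the side term.

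Most of the erythroid markers differed between the models. Of 5 erythroid markers, 4 were called lower in GTML tumors, beside 9.71% of all genes, and the remaining 1 had a higher estimate without a call. Among the 4 were the globin genes Hba-a1 (20.9 ± 9.35 CPM in GMYC and 4.71 ± 2.61 CPM in GTML tumors, SD, n = 6 and n = 8) and Hbb-bs (28.4 ± 11.5 and 8.21 ± 4.31 CPM). The summed level of the 5 markers lay between 53.3 and 176 CPM in GMYC tumors and between 41.5 and 134 CPM in GTML tumors. None of 6 astrocyte markers was called, although all 6 had lower estimates in GTML tumors and their sum ran from 799 to 1359 CPM in GMYC and from 537 to 956 CPM in GTML tumors. Of 6 microglial markers none was called, with sums from 102 to 192 and from 65.3 to 264 CPM. Among 6 oligodendrocyte markers, Mog was called higher and Olig2 lower in GTML tumors, with sums from 111 to 300.4 and from 110 to 305 CPM. Of 5 endothelial markers, Kdr was called higher in GTML tumors, with sums from 57.2 to 161 and from 106 to 253 CPM. Of 5 granule neuron markers tested, Calb2 was called higher and Cbln3 and Neurod1 lower, with sums from 241 to 349 and from 212 to 261 CPM. Most of those sums was Neurod1, at 237 ± 17.3 CPM in GMYC and 203 ± 12.7 CPM in GTML tumors (SD, n = 6 and n = 8). The 4 erythroid calls stood with the side term, while Kdr and Cbln3 lost theirs (edgeR adjusted p = 0.169 and 0.431). No marker in these lists was under 1 CPM in every tumor, and the part of these cells in the levels of the hosts was not tested. What part of the marker levels came from the tumor cells themselves was not tested either.

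None of the 4 counted snoRNA genes was called between the models (edgeR adjusted p of 0.373 for Snora16a, 0.386 for Gm23201, 0.210 for Snora24 and 0.733 for Snord87). Their log2 fold changes were -0.40, -0.27, -0.999 and -0.13, and with the side term they were -0.02, -0.01, -0.51 and 0.22. Without GTML tumor 2, Snora24 was called lower in GTML tumors at -1.54 (edgeR adjusted p = 0.0327), and with the side term in that fit it was at -0.74 (adjusted p = 0.107). With any other single tumor left out none of the 4 was called, and the lowest values were -0.59 for Snora16a, -0.40 for Gm23201 and -0.28 for Snord87, each without GTML tumor 1. Gm23201, which lies inside Zfas1, was thus at -0.27 (95% interval -0.74 to 0.20) where its host was at -0.66. The difference between those values was not tested.

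Each of the 4 separated the library sets. Snora16a lay between 33.0 and 44.5 CPM on the side with the higher snoRNA share and between 7.81 and 22.3 CPM on the other. Gm23201 lay between 27.8 and 36.6 against 13.6 and 23.0 CPM. Snora24 lay between 26.2 and 37.7 against 2.16 and 12.05 CPM, the widest separation of the 4. Snord87 lay between 25.0 and 35.9 against 11.7 and 24.8 CPM. All 4 ranges were apart, and since these counts are part of the share that defined the sides, that is a description and no test. The hosts did not separate the same way. Zfas1 ran from 49.98 to 81.2 CPM on the side with the higher share and from 28.9 to 90.8 CPM on the other. Gas5 ran from 101 to 169 and from 108 to 227 CPM, and Snhg12 from 35.4 to 77.1 and from 33.4 to 69.0 CPM.

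**Figure D3:**
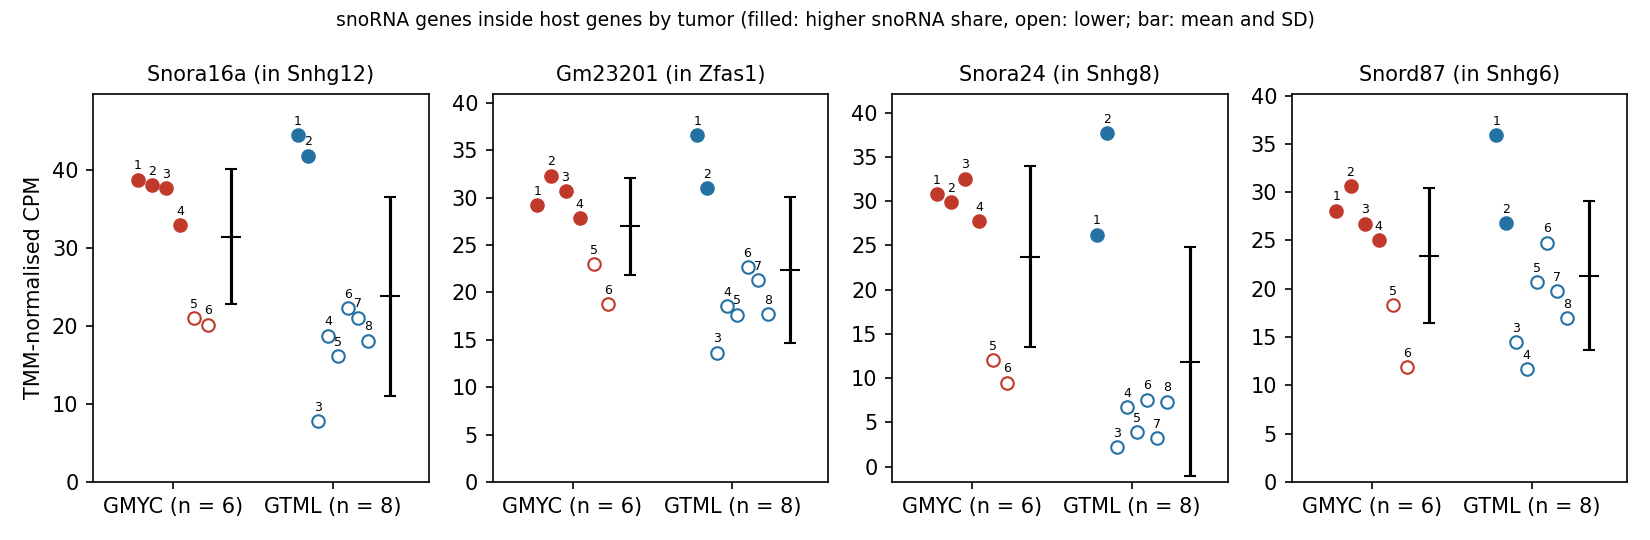
TMM-normalised CPM (vertical axis) of the 4 counted snoRNA genes in 6 GMYC and 8 GTML tumors, numbered, with filled points for the higher snoRNA share, open points for the lower share, and black bars for the mean and SD of each model. In each panel every filled point lies above every open point, within and across the models.

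Per 100 counts of the host, Snora16a had a median of 60.2 counts on the side with the higher share (range 48.9 to 126) and 33.5 on the other (23.4 to 54.0). Gm23201 had 44.7 (37.0 to 73.2) per 100 counts of Zfas1 against 40.8 (25.3 to 62.2). The highest ratio for both snoRNAs was in GTML tumor 1. The counts of the 4 snoRNAs were dense for their length and varied less on the side with the higher share than on the other. Snora16a had 245 to 271 counts over 136 bases there, a coefficient of variation of 4.43%, and Gm23201 191 to 230 counts over 89 bases, a coefficient of 6.23%. On the other side the coefficients were 29.4% and 19.7%. Snora24 and Snord87 were less even on the higher side, at 14.0% and 10.2%, against 59.1% and 20.5% on the other. On the higher side Snora16a had 1.80 to 1.99 and Gm23201 2.15 to 2.58 counts per base. Snora24 had 1.15 to 1.78 and Snord87 1.90 to 2.51 there. No protein-coding gene of at least 500 exon bases exceeded 1.27 counts per base, and the 3 tested hosts lay between 0.0594 and 0.376. Exon bases were pooled over all transcripts of a gene, and shorter protein-coding genes were left out. Genes of such unlike lengths are not directly comparable by counts per base. How duplicate reads were handled is not described, and its part in the snoRNA counts was not tested.

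Most snoRNA genes inside the hosts were listed at 0 in all 14 tumors. That was so for all 9 with a row in Gas5 (Snord47, Snord78 and Snord80 among them), all 8 in Snhg1, both in Snhg3, and Snora44, Snora61 and Snord99 in Snhg12. Over the whole table, 71 of 138 snoRNA genes that overlap an exon of any host were at 0 throughout (51.4%), against 36 of 271 inside a host without exon overlap (13.3%) and 353 of 778 outside hosts (45.4%). How reads over more than 1 annotated gene were assigned is not described, and its part in these zeros was not tested, so nothing was read from a 0 about these snoRNAs. The whole class of 283 snoRNA genes tested had a median log2 fold change of -0.47, with 22 called lower and 2 higher in GTML tumors, 8.48% of those tested beside 21.2% of all genes. With the side term 9 were called lower and 4 higher, and the median was 0.01. The share of counts on snoRNA genes was 0.345 ± 0.104% in GMYC and 0.253 ± 0.105% in GTML tumors (SD, n = 6 and n = 8), a difference of -0.0917 percentage points (exact two-sided permutation test, p = 0.137). Within the higher side the difference was 0.00388 points and within the lower side -0.0157 points (exact p = 0.867 and 0.571, smallest possible 0.0667 and 0.0357). Without GTML tumor 1 the difference over all tumors was -0.118 points (exact p = 0.0420).

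The promoters of the 3 tested hosts are shown because the start of transcription decides whether a host begins with a TOP motif. They are RefSeq windows of GRCm38.p6, 250 bases before to 50 after the start. Capitals mark a cytosine followed by at least 4 pyrimidines that begins within 10 bases of the start on the gene's strand. The first window of Gas5 is not shown and holds no such run.
Gas5, the second of its 2 windows, chr1:161034916-161035215, plus strand: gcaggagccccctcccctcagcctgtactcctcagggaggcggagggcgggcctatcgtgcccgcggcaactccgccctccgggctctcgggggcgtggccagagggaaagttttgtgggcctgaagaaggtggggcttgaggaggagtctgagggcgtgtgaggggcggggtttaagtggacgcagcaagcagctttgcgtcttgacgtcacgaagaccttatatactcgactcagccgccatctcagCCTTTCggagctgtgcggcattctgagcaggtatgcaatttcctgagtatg
Snhg12, chr4:132308428-132308727, plus strand: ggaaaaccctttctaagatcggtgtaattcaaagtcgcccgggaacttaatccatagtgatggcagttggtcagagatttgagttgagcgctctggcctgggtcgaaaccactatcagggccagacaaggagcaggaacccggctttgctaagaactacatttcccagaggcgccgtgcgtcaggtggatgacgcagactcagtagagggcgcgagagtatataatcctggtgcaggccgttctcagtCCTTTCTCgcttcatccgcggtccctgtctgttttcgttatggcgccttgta
Zfas1, chr2:167062684-167062983, plus strand, no match: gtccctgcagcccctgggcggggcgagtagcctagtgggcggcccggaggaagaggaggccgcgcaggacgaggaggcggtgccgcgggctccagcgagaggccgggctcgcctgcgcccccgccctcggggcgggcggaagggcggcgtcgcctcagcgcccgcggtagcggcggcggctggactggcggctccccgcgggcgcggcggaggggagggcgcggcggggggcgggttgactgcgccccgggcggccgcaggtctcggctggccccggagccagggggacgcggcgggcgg
Of 8 windows for 7 hosts (Snhg6 had none), 5 held such a run (62.5%), against 30.7% of 32851 windows of all genes, 56.2% of 73 windows of cytosolic ribosomal protein genes and 33.9% of 218 windows of protein-coding snoRNA hosts. The E-box CACGTG, searched on both strands, was in 0 of the 8 windows and in 7.15% of all windows. TATAAA, on either strand, was in 4 of the 8 (Snhg1, Snhg3, Snhg5 and Snhg8) and in 13.6% of all. Matches are letters in a window, and nothing about a factor was read from their presence or absence.

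Cytosolic ribosomal protein genes, which share the TOP motif with several hosts, had lower estimates in GTML tumors with 1 exception. Of 79 tested, 19 were called lower and 0 higher, 24.1% beside 9.71% of all genes called lower, 78 had estimates below 0, and the median log2 fold change was -0.33 against 0.04 for all genes. The median stayed between -0.35 and -0.31 under the other scalings tried, with 78 of 79 below 0 in each. With the side term 8 were called lower, where 6.77% of all genes were, and the median was -0.22. Rpl15 was at 145 ± 13.7 CPM in GMYC and 88.4 ± 20.2 CPM in GTML tumors (log2 fold change -0.71, adjusted p = 0.00572, edgeR) and Rpl27a at 136 ± 20.2 and 85.5 ± 13.3 CPM (-0.67, adjusted p = 0.00403). Rps27l was at 38.3 ± 6.07 and 17.5 ± 7.07 CPM (-1.13, adjusted p = 0.00785).

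Within each model the level of Zfas1 rose and fell with the ribosomal protein genes. Between log2 CPM of Zfas1 and the mean log2 CPM of those genes, Pearson's r was 0.924 and Spearman's rho 1.00 over 6 GMYC tumors, and 0.834 and 0.905 over 8 GTML tumors. Exact permutation p adjusted over 12 relations was 0.0333 for both r and 0.0274 for both rho. With the 2 tumors farthest from the median left out, r was 0.962 in GMYC and 0.952 in GTML tumors. In GTML tumors those were tumors 1 and 2, so the value is also the one within the side of lower snoRNA share (n = 6). The remaining sets held 4, 2 and 2 tumors, too few for a value. Gas5 followed the ribosomal protein genes in GMYC tumors by Pearson's r (0.922, adjusted exact permutation p = 0.0333) but not by rank (rho 0.829, adjusted exact p = 0.117), and had r = -0.36 in GTML tumors (adjusted exact p = 0.460), which was 0.421 without GTML tumors 1 and 2. Snhg12 had r = 0.782 in GMYC tumors and 0.322 in GTML tumors (adjusted exact permutation p = 0.0738 and 0.460). Without GTML tumors 1 and 2 its r in GTML tumors was 0.907. The difference between hosts or models in these correlations was not tested, and all points share the library composition of their tumor.

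**Figure D4:**
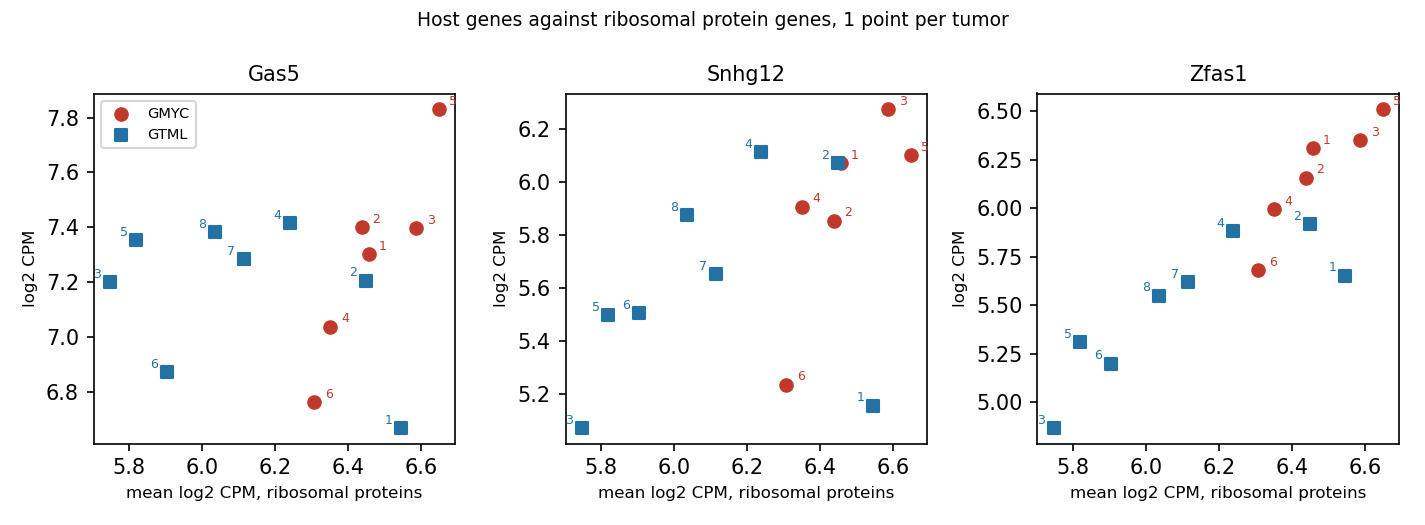
log2 CPM of Gas5, Snhg12 and Zfas1 (vertical axes) against the mean log2 CPM of the ribosomal protein genes (horizontal axes), 1 point per tumor, circles for GMYC and squares for GTML, numbered. Zfas1 follows the ribosomal mean in both models (r = 0.924 and 0.834), with GTML tumors 1 and 2 to the right of the other GTML tumors.

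Between the hosts, Gas5 and Zfas1 had r = 0.942 in GMYC tumors (adjusted exact permutation p = 0.0333, rho 0.829 with adjusted exact p = 0.117) and r = 0.140 in GTML tumors (adjusted exact p = 0.736). Snhg12 and Zfas1 had r = 0.907 in GMYC (adjusted exact permutation p = 0.0367, rho 0.886 with adjusted exact p = 0.1) and r = 0.751 in GTML tumors (adjusted exact p = 0.0644). With the 2 farthest tumors left out these were 0.777 and 0.330 for Gas5 with Zfas1, and 0.843 and 0.465 for Snhg12 with Zfas1. Gas5 and Snhg12 had r = 0.754 and 0.587 (adjusted exact permutation p = 0.165 and 0.167). Within the 6 GTML tumors of lower snoRNA share, r was 0.958 for Snhg12 with Zfas1. It was 0.562 there for Gas5 with Zfas1 and 0.489 for Gas5 with Snhg12.

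The genes most like the mean log2 CPM of the 3 tested hosts over all 14 tumors, by Pearson's r, were Rsl1d1 (0.920), a nucleolar protein gene, St6galnac4 (0.918), a sialyltransferase gene, and Trmt6 (0.912), a subunit of a tRNA methyltransferase. Nup43 (0.901), a nuclear pore gene, and Nop56 (0.899), a core protein of box C/D snoRNPs, followed. They were picked as the highest among all tested genes, which fixes high values, so no p is given.

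The proteins that build snoRNPs had lower estimates in GTML tumors more often than higher ones, at 15 of 19 tested, with 5 called lower (26.3%, beside 9.71% of all genes), 0 higher and a median log2 fold change of -0.32. Snu13, which binds the box C/D core first, was at 70.5 ± 9.68 CPM in GMYC and 38.8 ± 15.2 CPM in GTML tumors (log2 fold change -0.86, adjusted p = 0.0125, edgeR). Fbl, the methyltransferase fibrillarin, was at 67.0 ± 10.7 and 46.7 ± 9.12 CPM (-0.52, adjusted p = 0.0242), and Rrp9, which binds the U3 snoRNA, at 100 ± 21.6 and 71.9 ± 9.69 CPM (-0.48, adjusted p = 0.0258). With the side term 2 of the 19 were called lower, where 6.77% of all genes were, the median was -0.15, and Fbl and Rrp9 lost their calls (adjusted p = 0.0510 and 0.0856). Among 22 ribosome biogenesis genes 3 were called lower and 0 higher (13.6%, beside 9.71% of all genes called lower, median -0.10), namely Bop1, a large subunit assembly factor (-0.71, adjusted p = 0.00884), Rrn3, an RNA polymerase I initiation factor (-0.41, adjusted p = 0.0146), and Ddx21, a nucleolar helicase (-0.44, adjusted p = 0.0232, all edgeR). With the side term 2 were called lower, the median turned to 0.02, and Ddx21 lost its call (adjusted p = 0.0836).

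Nonsense-mediated decay genes, whose products degrade spliced host transcripts, had 1 call among 10 (10%, beside 21.2% of all genes). That was Smg6, an endonuclease of the pathway, at 117 ± 17.6 CPM in GMYC and 171 ± 23.5 CPM in GTML tumors (log2 fold change 0.55, adjusted p = 0.00760, edgeR). With the side term 1 of the 10 was called higher and 1 lower, beside 13.6% of all genes called. Smg1, a kinase of the pathway, was at 0.28 (adjusted p = 0.114). Other noncoding hosts had 0 calls among 6 tested and a median log2 fold change of 0.08, and 0 calls with the side term. Of these, Snhg17 was at 91.8 ± 31.1 and 114 ± 13.0 CPM (0.31, adjusted p = 0.277), Snhg20 at 23.8 ± 4.11 and 19.4 ± 3.63 CPM (-0.30, adjusted p = 0.232) and Epb41l4aos at 17.4 ± 5.65 and 13.7 ± 2.62 CPM (-0.34, adjusted p = 0.276, all edgeR). Protein-coding snoRNA hosts were taken as protein-coding genes that span an annotated snoRNA gene on the same strand. Whether the snoRNA is cut from their transcripts was not tested. Among 230 such genes tested, 35 were called lower and 18 higher in GTML tumors, with a median of -0.13. That was 23.0% of those tested beside 21.2% of all genes. In the fit with the side term 22 were called lower and 15 higher. Slc25a3, the mitochondrial phosphate carrier, was at 225 ± 10.5 CPM in GMYC and 140 ± 21.6 CPM in GTML tumors (-0.69, adjusted p = 0.00157, edgeR). Ipo7, a nuclear import receptor, was at -0.64 and Robo2, an axon guidance receptor, at -2.43 (adjusted p = 0.00158 and 0.00238, edgeR).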

How the data were processed

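RNA came from fresh-frozen biopsies. The paper names the Ion Proton for the GMYC tumors and describes the GTML reads as similarly generated, in part for an earlier study. The authors aligned reads to mm9 with STAR and Bowtie, counted them per gene with featureCounts and deposited whole-number counts without normalization. The submitters' notes list STAR 2.4.0, Bowtie2 2.2 and Subread 1.5.2. A further 18 columns of counts match no sample label and were not used. Identifiers were matched to GENCODE M21 (GRCm38), which gave symbols for 32620 genes (87.4%), so overlaps come from another annotation than the counting. Counts were fitted with edgeR 4.0.16 in R 4.3.3 (TMM, CPM above 1 in at least 3 tumors, Benjamini-Hochberg). In simulated counts of 20575 genes for this comparison, 111 of 200 genes changed 2-fold were called. No pair of tumors of 1 model agreed within sampling noise (lowest chi-square over its degrees of freedom 5.67). Whether each biopsy came from its own mouse is not given in the labels, so p-values measure the spread between these samples. Correlations used log2 CPM with a prior count of 2. Named genes were the hosts, 3 tested genes per list with the smallest p, snoRNAs inside hosts with a mean of at least 5 counts, and the 5 most alike genes, and 1 gene that this rule names is not reported here. Znfx1, Zbtb37, Rcc1, Myc, Otx2 and Npr3, and the snoRNAs at 0, were named as neighbours or checks after their values were seen. Members and lists were chosen with earlier results of these data known. Alternatives were limma-voom 3.58.1, DESeq2 1.42.0, other scalings and filters, thinned counts, the replicate block, and leaving out each tumor.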

Additional observations from a re-analysis of the deposited data

How the results depend on the processing

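The log2 fold change of Zfas1 kept its direction in every alternative run over the models, and kept its call with DESeq2, limma-voom, every scaling and filter, thinned counts and each tumor left out. The 1 host call became 0 within the higher side, within the lower side and under the replicate block, where Zfas1 was at -0.70 (edgeR adjusted p = 0.0928). The labels name no pairing by replicate number. Deviations of same-numbered tumors from their model means had correlations from -0.21 to 0.24. Of 6 GMYC tumors, 1 (tumor 1) was closest to the GTML tumor of its own number. Such correlations cannot decide whether tumors were paired, for instance by litter or processing day. With the side term, the 1 host call became 0 with limma-voom (adjusted p = 0.0541), under the block (adjusted p = 0.273) and in leave-one-out fits, which gave 0 to 1. All genes called numbered 4459, and 251 under the block, 2380 in the same 12 tumors without it (added after seeing the data), 2851 with the side term, 2 within the higher side, 2662 within the lower side and 2617 to 6430 with 1 tumor left out (2617 without GMYC tumor 3, 2916 without GMYC tumor 5). Apart from fewer tumors in some of these fits, the cause was not tested. The snoRNA share difference was 0.00388 points within the higher side and -0.121 to -0.0735 points with 1 tumor left out. The interaction values turned sign with 1 tumor left out, from -0.83 to 0.24 for Gas5 (0.04 without GTML tumor 1, 0.24 without GMYC tumor 6), -0.81 to 0.11 for Snhg12 (0.11 and 0.10) and -0.18 to 0.66 for Zfas1 (-0.18 without GMYC tumor 5). Depth limits Snhg3, at 0 to 2 counts, and intervals cover counting and tumor spread as fitted, not mapping.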
